A study of Mus musculus with 9 samples.

Results

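The Ifitm genes encode the interferon-induced transmembrane proteins, and 4 of them, Ifitm1, Ifitm2, Ifitm3 and Ifitm6, are described here across the cells of mouse bone marrow. They were taken by their symbols, 4 of 15265 genes listed in 9 Drop-seq tables. In Drop-seq single cells are enclosed in droplets with beads, whose barcodes mark the RNA by cell. The tables came from unselected marrow cells of C57BL/6 mice at 2 to 3 weeks of age, 4 libraries from NG2-cre/Pot1a fl/fl mice and 5 from NG2-cre/Pot1a wt/wt mice. Both groups carried NG2-cre, in which the promoter of NG2 (Cspg4), a proteoglycan of pericytes and mesenchymal stromal cells, drives Cre recombinase. In Pot1a fl/fl mice both copies of Pot1a, which encodes a telomere-binding protein, can be cut out by Cre. The deletion was thus directed at stroma and not at blood cells. Most cells measured here were of blood lineages, and a few scored highest for stromal markers. The study asked how haematopoiesis proceeds when this stroma lacks Pot1a. Nothing in the labels assigns a library to a mouse, and a legend of the study gives fewer mice than there are libraries, so libraries may share mice. The p-values thus measure only the spread among libraries, which may in part be technical.

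IFITM proteins are small membrane proteins that hinder enveloped viruses from fusing with the cell. IFITM3 acts largely in endosomes and IFITM1 more at the cell surface, and interferons raise the transcription of several members in many cell types. Bone marrow makes neutrophils through promyelocyte and myelocyte stages beside monocytes, red cells and B cells.

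The 4 genes lie together on chromosome 7 within 63.1 kb of the mouse genome (GRCm38.p6). Ifitm2 spans 140954837 to 140955987 on the minus strand, Ifitm1 140967221 to 140969825 on the plus strand, Ifitm3 141009586 to 141010770 on the minus strand and Ifitm6 141015699 to 141017924 on the minus strand. Promoters from RefSeq, 250 bases before to 50 bases after the start (GRCm38.p6), were found for all 4. The promoters of Ifitm3 and Ifitm6, the members highest in monocyte-like and in granulocyte-like cells below, are printed because they differ in the core of the interferon-stimulated response element, the letters GAAA occurring 2 times with 2 bases of any kind between them, marked in capitals. The Ifitm3 sequence is chr7:141010695-141010994 and the Ifitm6 sequence chr7:141016843-141017142, both on the minus strand and written 5′ to 3′.
Ifitm3: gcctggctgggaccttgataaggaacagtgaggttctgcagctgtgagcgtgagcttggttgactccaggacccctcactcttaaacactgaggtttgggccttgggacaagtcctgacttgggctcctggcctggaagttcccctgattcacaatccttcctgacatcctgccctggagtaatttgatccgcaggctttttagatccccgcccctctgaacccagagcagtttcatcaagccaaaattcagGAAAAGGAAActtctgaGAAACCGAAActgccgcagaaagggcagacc
Ifitm6: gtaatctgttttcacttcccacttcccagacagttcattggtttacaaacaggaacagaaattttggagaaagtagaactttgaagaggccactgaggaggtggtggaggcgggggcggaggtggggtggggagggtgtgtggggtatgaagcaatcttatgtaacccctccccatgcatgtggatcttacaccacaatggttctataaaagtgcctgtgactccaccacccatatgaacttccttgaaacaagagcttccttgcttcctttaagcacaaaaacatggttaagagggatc
The Ifitm3 window held this core in 2 places, 3 and 20 bases after the start. The Ifitm6 window, like that of Ifitm1 (chr7:140967826-140968125), held none on either strand. These windows of Ifitm6 and Ifitm1 lie wholly inside the gene spans given above, whereas those of Ifitm2 and Ifitm3 reach past the outer 5′ end. The sequence before the outer 5′ ends of Ifitm6 and Ifitm1 was not searched. The Ifitm2 window held it once, 46 bases before the start, and 3.44% of 32851 promoters of the same length held it. The gamma-activated site TTCNNNGAA occurred in the Ifitm3 window, 14 bases after the start and overlapping the second core, and in the Ifitm6 window, 10 bases before the start, against 8.30% of all promoters. A C/EBP motif (TTGCNNAA, 10.8% of all promoters) and a GATA motif (AGATAA, 11.2%) were in none of the 4 windows. A match is only a run of letters, and binding was not measured.

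Each library held 100 barcodes, and 899 of 900 were kept. Library totals ran from 119459 counts (Pot1a fl/fl 3) to 465277 (Pot1a fl/fl 1), with a median per cell of 955.5 to 3704 counts. The study's methods describe the tables as read counts and do not say whether reads of 1 molecule were merged by its tag, so a molecule may have been counted more than once. Levels are given as CPM, the counts of a gene scaled to the summed counts of a library or of its cells of one class. Pot1a wt/wt 2 and 3 shared 19 barcodes, the single pair of 36 that shared any. The counts of each shared barcode correlated at 0.932 to 0.965 across genes between the pair, so the same cells stood in both. Both libraries were kept, and tests were repeated with the pair as 1 library. The kept cells held 79 counts of Ifitm1 in 38 cells, 479 of Ifitm2 in 294 cells, 428 of Ifitm3 in 250 cells and 998 of Ifitm6 in 278 cells. A count of 3 corresponds to 1.15 CPM over all kept cells.

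Cells were clustered without the Ifitm genes, and clusters were named from lists of marker genes. This gave 284 granulocyte-like cells, 230 B lineage-like, 166 erythroblast-like, 83 early erythroid progenitor-like and 64 monocyte/macrophage-like cells. Another 72 cells formed a cluster led by Sparc, Ctla2a and Angpt1 that no list could name. Granulocyte-like cells fell into 97 promyelocyte-like cells (led by Elane, Mpo and Ctsg, genes of primary granules), 149 myelocyte-like cells (Chi3l3, Ngp, Camp, Ltf) and 38 late neutrophil-like cells (Mmp8, Retnlg, Cxcr2). The 19 granulocyte markers summed to 217470 CPM in granulocyte-like cells and between 6392 and 12603 CPM in the other named classes. These rebuilt names may differ from those of the study.

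Ifitm6 was highest in granulocyte-like cells, where its counts lay mostly in the myelocyte-like and late neutrophil-like stages. It ran from 497 to 1537 CPM in granulocyte-like cells (median 1026, 9 libraries), against 0 to 109.9 CPM in B lineage-like cells (median 48.1, 9 libraries). The libraries of the 2 classes did not overlap. Ifitm6 was higher in granulocyte-like than in B lineage-like cells by 5.05 ± 0.29 on the log2 scale (SE) and higher than in erythroblast-like cells by 4.33 ± 0.31. Both passed edgeR's quasi-likelihood test with library as a block (adjusted p = 2.88e-23 and 1.66e-19). All 4 members were called higher in granulocyte-like than in B lineage-like cells, where 23.5% of all 1592 genes tested were called higher. Calls here mean a Benjamini-Hochberg adjusted p below 0.05 over all genes tested. Ifitm1 is among the 4 only because it was kept by name below the filter on low counts, and it held 20 counts against 3. Against erythroblast-like cells 2 of the 4 were called higher (29.2% of all genes), Ifitm6 and Ifitm2.

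Monocyte/macrophage-like cells held Ifitm6 at 76.4 to 719 CPM (median 250.2, 8 libraries with at least 5 such cells). Ifitm6 was lower there than in granulocyte-like cells by a log2 difference of -2.42 ± 0.32 (adjusted p = 6.98e-09), a direction in which 9.36% of all genes were called. It was still above B lineage-like cells by 2.63 ± 0.50 (adjusted p = 1.62e-05). Ifitm6 stood at 25.2% of the granulocyte level in monocyte/macrophage-like cells, where the 19 granulocyte markers together stood at 5.80%. In B lineage-like, erythroblast-like and early erythroid progenitor-like cells Ifitm6 stood at 4.25%, 5.63% and 4.07% of its granulocyte level. The granulocyte markers stood at 3.73%, 4.21% and 2.94% there, and the low Ifitm6 counts of these classes were not read as expression.

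Counted by cell, 63.0% of granulocyte-like cells held an Ifitm6 count (95% Clopper-Pearson interval 57.1 to 68.7, median 2308.5 counts) and 23 of 230 B lineage-like cells did (6.45% to 14.6%, median 2112.5 counts). With every cell thinned to 1000 counts the shares were 47.4% and 3.48%, from 253 and 201 cells deep enough. Intervals on shares cover counting error only.

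Ifitm3, the best-studied antiviral member, was highest in monocyte/macrophage-like cells. Its levels there were 485, 472, 1587 and 597 CPM in Pot1a fl/fl 1 to 4 and 1084, 535, 889 and 2158 CPM in Pot1a wt/wt 2 to 5. In granulocyte-like cells it ran from 55.2 to 324 CPM (median 161.7, 9 libraries), below every monocyte/macrophage-like value. Both libraries at the top, Pot1a fl/fl 3 and Pot1a wt/wt 5, were also the 2 shallowest. Ifitm3 was higher in monocyte/macrophage-like than in granulocyte-like cells by 1.85 ± 0.29 (edgeR, adjusted p = 5.01e-07), a direction in which 5.15% of all genes were called. It exceeded erythroblast-like cells by 2.24 ± 0.31 and B lineage-like cells by 4.88 ± 0.38 (adjusted p = 1.02e-08 and 6.15e-17). Monocyte/macrophage-like cells had 3 of 4 members called higher against erythroblast-like cells (21.7% of all genes) and the same 3, Ifitm2, Ifitm3 and Ifitm6, called higher against B lineage-like cells (18.3%).

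Ifitm3 was found in 81.3% of monocyte/macrophage-like cells (69.5 to 89.9), 30.3% of granulocyte-like cells (24.99 to 36.0) and 6.52% of B lineage-like cells (3.70 to 10.5). After thinning the shares were 51.9%, 19.4% and 1.49%. Between granulocyte-like and erythroblast-like cells Ifitm3 gave 0.38 ± 0.30 (adjusted p = 0.290), a value that did not pass the test. Erythroblast-like cells held 48.3 to 656 CPM (median 153.3, 9 libraries) and overlapped the whole granulocyte range. Ifitm3 was higher in granulocyte-like than in B lineage-like cells by 3.02 ± 0.38 (adjusted p = 4.73e-10).

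Ifitm2, another antiviral member, was spread over both myeloid classes. It ran from 168.6 to 459 CPM in granulocyte-like cells (median 289.7, 9 libraries) and from 76.4 to 1021 CPM in monocyte/macrophage-like cells (median 349, 8 libraries), and these ranges overlapped fully. The difference of monocyte/macrophage-like minus granulocyte-like cells was 0.04 ± 0.26 (adjusted p = 0.963). Ifitm2 was higher in granulocyte-like than in erythroblast-like cells by 2.49 ± 0.29 and than in B lineage-like cells by 2.68 ± 0.26 (adjusted p = 2.53e-11 and 6.24e-14). In monocyte/macrophage-like cells it exceeded the same 2 classes by 2.53 ± 0.36 and 2.72 ± 0.34 (adjusted p = 2.08e-08 and 8.73e-10). Early erythroid progenitor-like cells held 87.7 to 485 CPM (median 214.8, 8 libraries), with a value above that of erythroblast-like cells in 8 of 8 libraries.

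**Figure D1:**
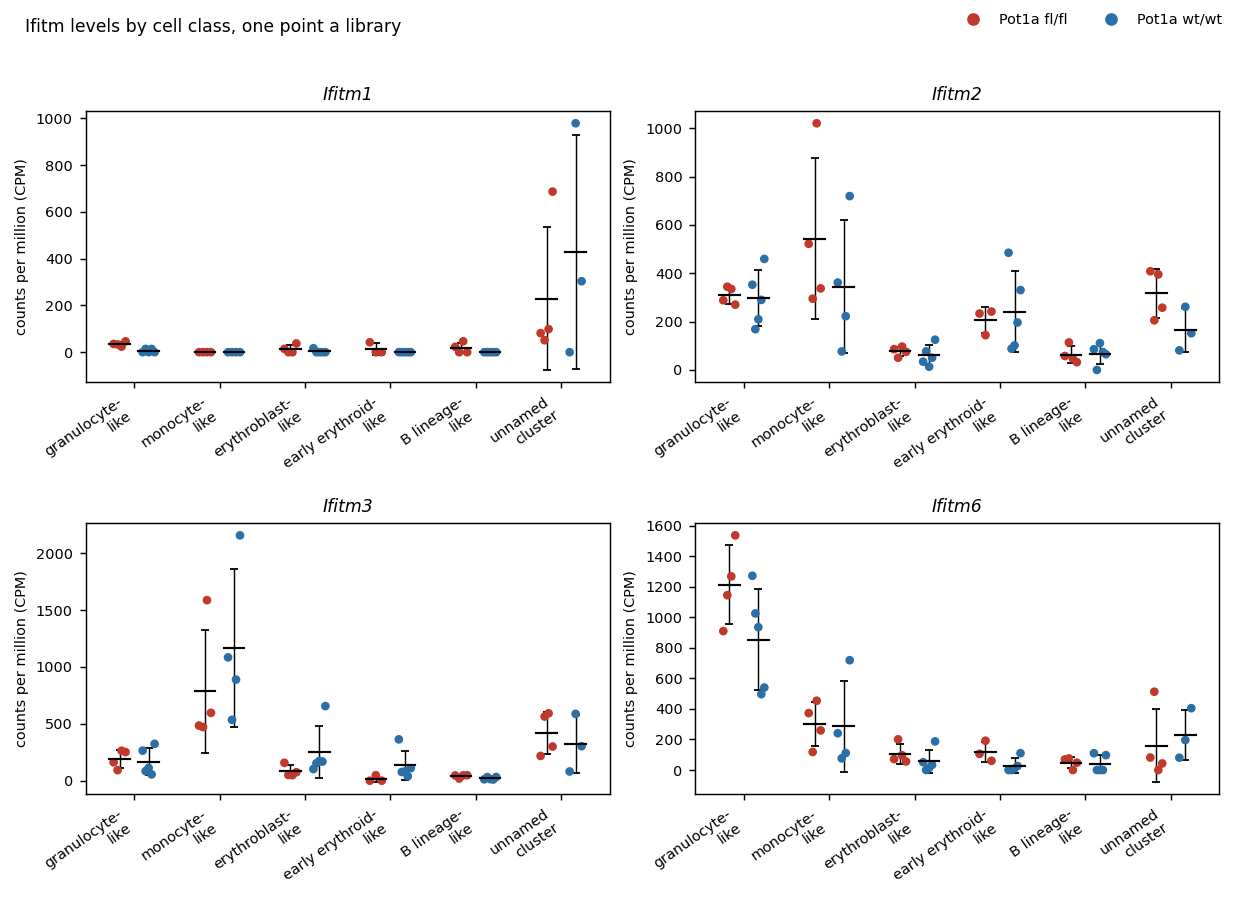
Levels of the 4 genes (CPM, linear axes) in each cell class, 1 point for each library with at least 5 cells of the class, Pot1a fl/fl left of Pot1a wt/wt, with the mean (horizontal line) and SD (bar). Ifitm6 peaked in granulocyte-like cells (497 to 1537 CPM), Ifitm3 in monocyte/macrophage-like cells (472 to 2158 CPM), and Ifitm1 in the unnamed cluster (0 to 979 CPM).

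Ifitm1 had the fewest counts and never passed the filter on low counts, so it was kept in the tests by name. It had 0 counts of 151399 in monocyte/macrophage-like cells, which allows up to 19.8 CPM (3 counts, over the class), and 20 counts (24.4 CPM) in granulocyte-like cells. The test gave an adjusted p of 0.048, and that call was lost, or the sign turned, in 12 of the 22 alternatives. Of the 20 counts 7 came from 1 cell of Pot1a fl/fl 1 that scored highest for T and NK cell markers. Without that cell 13 counts remained (15.9 CPM), under the 19.8 CPM limit, so no bound on a fold is given, and without Pot1a fl/fl 1 the adjusted p was 0.118. In the contrast of granulocyte-like minus B lineage-like cells Ifitm1 gave 2.12 ± 0.67 (adjusted p = 0.00812). Without Pot1a fl/fl 4 this was 1.53 (adjusted p = 0.087). Granulocyte-like minus erythroblast-like cells gave 1.12 ± 0.72 (adjusted p = 0.190). It was called in 5 of 23 alternatives (0.84 to 2.95) and had the opposite sign in 1 (-0.29).

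The unnamed cluster of 72 cells held 49 of the 79 Ifitm1 counts, in 17 cells. By library these were 3, 1, 1 and 16 counts in Pot1a fl/fl 1 to 4 and 6, 0, 1, 15 and 6 in Pot1a wt/wt 1 to 5. Pot1a fl/fl 4 and Pot1a wt/wt 4 thus held most of them. Classed one by one on their summed markers, 6 of the 17 cells scored highest for basophil, mast cell and eosinophil markers (22 Ifitm1 counts) and 6 for stem and progenitor markers (22 counts). Of the 7 cells with at least 2 Ifitm1 counts, 3 held Mcpt8, a protease of basophils, 3 held Ms4a2, a chain of the high-affinity IgE receptor, and 3 held Hlf, a transcription factor of haematopoietic stem cells. Among the 55 cells of the cluster with no Ifitm1 count, 4 held Mcpt8, 0 held Ms4a2 and 2 held Hlf. These cells were singled out after their values had been seen, and no test was made.

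The order of the classes by mean level was followed from each class to its neighbour with a two-sided exact sign-flip permutation test over the libraries that held both. In 20 such pairs no adjusted p was below 0.05. The lowest was 0.156, shared by 4 pairs. These were Ifitm6 in granulocyte-like against monocyte/macrophage-like cells (higher in 7 of 8 libraries), Ifitm3 in monocyte/macrophage-like cells against the unnamed cluster (6 of 7), Ifitm1 in the unnamed cluster against granulocyte-like cells (6 of 7), and Ifitm2 in early erythroid progenitor-like against erythroblast-like cells (8 of 8). With 6 to 9 libraries a pair, the smallest p these tests could reach before adjustment was between 0.0039 and 0.0313. Over 20 pairs, a single pair at such a p could not pass the adjustment by itself. The neighbours were also set by the mean levels of these same libraries, so the lack of calls does not decide the order.

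Along the neutrophil stages Ifitm6 was low in promyelocyte-like cells and high in both later stages. It ran from 0 to 254 CPM in promyelocyte-like cells (median 34.1, 9 libraries) and from 939 to 2776 CPM in myelocyte-like cells (median 1734, 9 libraries). In late neutrophil-like cells it stood at 4238 and 4312 CPM in Pot1a fl/fl 1 and 4 and at 2186 CPM in Pot1a wt/wt 1, the 3 libraries with at least 5 such cells. The first 2 stages did not overlap. Pooled over libraries, promyelocyte-like cells held 70.0 CPM, near erythroblast-like (59.0 CPM) and B lineage-like cells (44.5 CPM), whose Ifitm6 counts were not read as expression. Ifitm6 was higher in myelocyte-like than in promyelocyte-like cells by 5.28 ± 0.32 (edgeR, adjusted p = 8.22e-15) and in late neutrophil-like than in promyelocyte-like cells by 5.88 ± 0.42 (adjusted p = 6.18e-13). Late minus myelocyte-like cells gave 0.59 ± 0.37 (adjusted p = 0.284). This was called in 5 of 21 alternatives, at 0.98 to 1.12 without doublets, at both other resolutions and without integration, and at 0.82 with libraries of at least 2 late cells, an alternative chosen after seeing the data. It had the opposite sign in 2, with no filter on low counts (-0.20) and with limma (-0.10).

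Ifitm3 rose as well from promyelocyte-like cells (median 127.0 CPM, 0 to 221, 9 libraries) to myelocyte-like cells (median 222 CPM, 27.7 to 512, 9 libraries). In late neutrophil-like cells the median was 569.6 CPM (109 to 706, 3 libraries), with overlap at each step. There the 2 Pot1a fl/fl libraries stood at 569.6 and 706 CPM. The single Pot1a wt/wt library stood at 109 CPM from 1 count, under the 157 CPM median of Pot1a wt/wt myelocyte-like cells. The higher late median thus rests on Pot1a fl/fl libraries. Myelocyte-like minus promyelocyte-like cells gave 1.88 ± 0.41 (adjusted p = 0.000228) and late minus promyelocyte-like cells 2.59 ± 0.65 (adjusted p = 0.00153). Without Pot1a fl/fl 1 the second value was 1.78 (adjusted p = 0.10). Ifitm2 was already at 209.6 to 431 CPM in promyelocyte-like cells (median 272, 9 libraries), against 110.7 to 598 CPM in myelocyte-like cells (median 343, 9 libraries). Myelocyte-like minus promyelocyte-like cells gave 0.66 ± 0.27 for Ifitm2 (adjusted p = 0.0380), a call lost in 12 of 24 alternatives. Of the 4 members 3 were called higher in myelocyte-like than in promyelocyte-like cells, where 29.3% of the 793 genes tested were. Between late neutrophil-like and myelocyte-like cells none of the 4 was called (14.6% of all genes in either direction, and 1 of the 4, Ifitm1, below 0.05 unadjusted).

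Late neutrophil-like against promyelocyte-like cells had 3 of 4 members called higher (19.2% of all genes), Ifitm1 among them with 3.93 ± 1.42 (adjusted p = 0.0235). That value rests on 1 cell of Pot1a fl/fl 1 with 7 of the 8 late Ifitm1 counts. This is the cell with T and NK cell markers described above, and without Pot1a fl/fl 1 the value was -3.05 (adjusted p = 0.56). The median over all genes was -0.52 between late and myelocyte-like cells and -0.68 between late and promyelocyte-like cells, so the positive values above stand against a general shift downward.

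By cell, Ifitm6 was found in 19.6% of promyelocyte-like cells (12.2 to 28.9, median 3485 counts), 84.6% of myelocyte-like cells (77.7 to 90.0, median 2098 counts) and 89.5% of late neutrophil-like cells (75.2 to 97.1, median 1483 counts). Thinned to 1000 counts a cell the shares were 1.08%, 70.3% and 90.6%, so the order held although depth fell along the stages. Ifitm2 was found in 62.9% of promyelocyte-like cells, and in 23.7% after thinning.

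**Figure D2:**
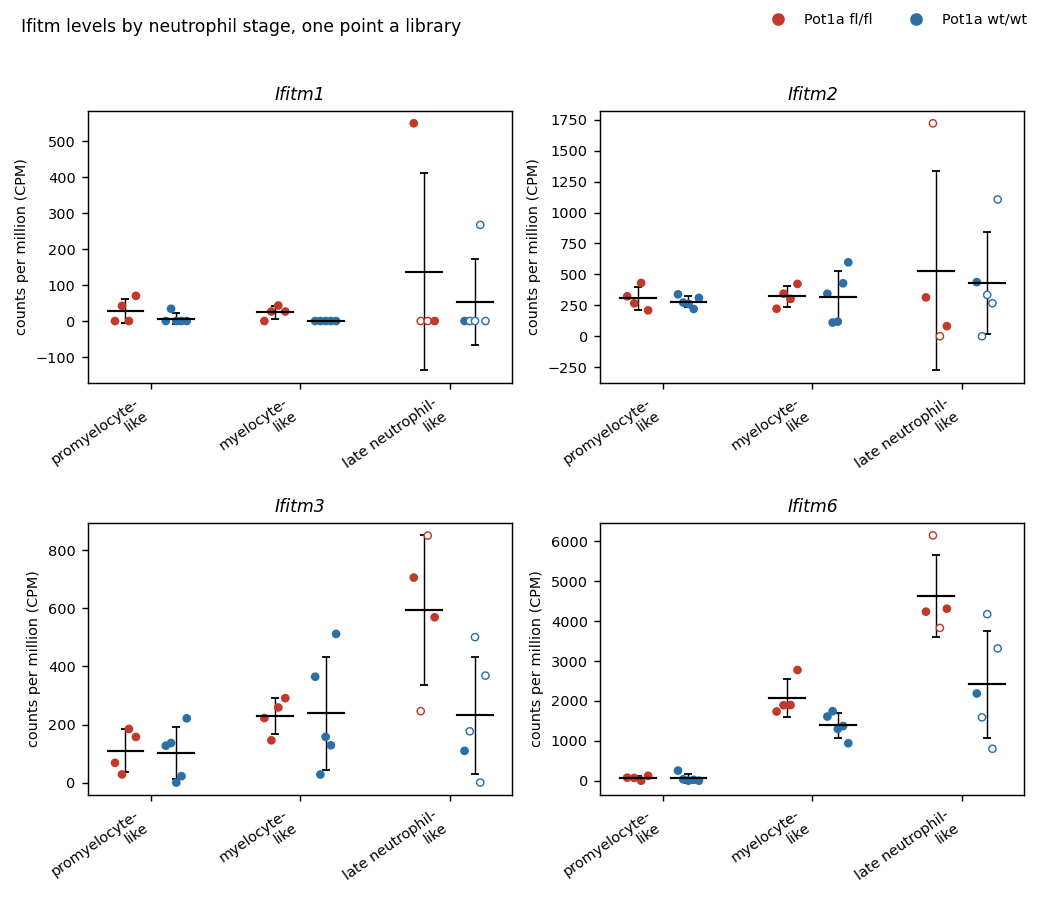
Levels of the 4 genes (CPM, linear axes) along the neutrophil stages, 1 point a library, Pot1a fl/fl left of Pot1a wt/wt. Filled points have at least 5 cells and hollow points 2 to 4 cells; means (horizontal lines) and SD (bars) include both. Ifitm6 stood at 0 to 254 CPM in promyelocyte-like cells and at 939 to 2776 CPM in myelocyte-like cells, while Ifitm2 was at 209.6 to 431 CPM in the promyelocyte-like stage.

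The make-up of the family's own counts turned over between the first 2 stages. Drop-seq tags the 3′ end of a transcript, so a gene's counts do not grow with its length and shares were taken without length scaling. Ifitm2 made up 61.9% of the 189 Ifitm counts of promyelocyte-like cells and Ifitm6 15.3%. In myelocyte-like cells Ifitm2 made up 12.9% of 805 counts and Ifitm6 77.4%, and in late neutrophil-like cells 8.40% and 79.0% of 262 counts. Ifitm3 made up 53.4% of 219 counts in monocyte/macrophage-like cells and 56.8% of 132 counts in erythroblast-like cells. Ifitm2 led in early erythroid progenitor-like cells (55.2% of 125 counts) and in B lineage-like cells (44.9% of 89 counts). These shares pool the libraries. By library Ifitm3 ran from 35.1% to 77.8% in monocyte/macrophage-like and from 16.7% to 86.7% in erythroblast-like cells. Ifitm2 ran from 37.5% to 80% in early erythroid progenitor-like and from 0% to 88.9% in B lineage-like cells. In none of these classes did the pooled lead hold in every library. Of all Ifitm counts in granulocyte-like cells Ifitm6 made up 68.4%.

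**Figure D3:**
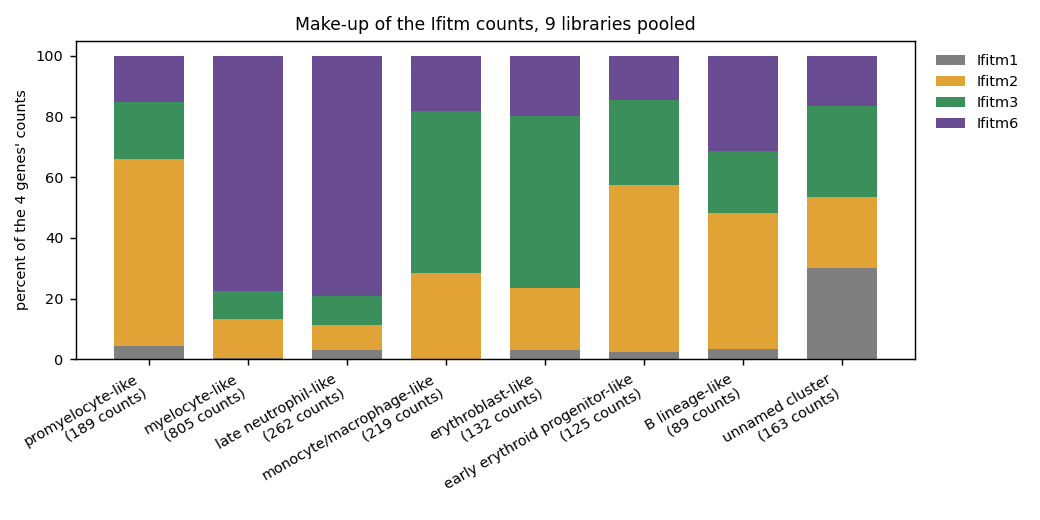
Share of each gene among the counts of the 4 Ifitm genes (percent, stacked bars from 0 to 100), pooled over 9 libraries, by cell class, with the number of counts under each name. Ifitm2 led in promyelocyte-like cells (61.9%), Ifitm6 in myelocyte-like cells (77.4%) and Ifitm3 in monocyte/macrophage-like cells (53.4%).

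Reads of near-identical members could be split between them. The longest run of bases shared by 2 members' transcripts was 69 (Ifitm2 and Ifitm3), and within the last 300 bases, where Drop-seq reads fall, 26 (the same pair). Such reads would move counts between those 2 genes, and their share was not tested.

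Between the genotypes, Ifitm6 in whole marrow was at 449, 701, 502 and 489.5 CPM in Pot1a fl/fl 1 to 4, against 465, 254, 186.1, 133.7 and 299.98 CPM in Pot1a wt/wt 1 to 5. The groups overlapped by 1 library, Pot1a wt/wt 1, and the means were 535 ± 113 (SD, n = 4) and 268 ± 127 (SD, n = 5). Pot1a fl/fl minus Pot1a wt/wt gave 1.05 ± 0.31 on the log2 scale (unadjusted p = 0.00344), which failed the adjustment over all 4560 genes (edgeR, adjusted p = 0.352). None of the 4 members was called in whole marrow, where 0.0658% of all genes were called and 365 had an unadjusted p below 0.05. With no filter on low counts Ifitm6 was called (adjusted p = 0.00991). In bulk sums, fewer cells of a type and less RNA per cell cannot be told apart.

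Granulocyte-like cells were 38.8 ± 12.1% of cells in Pot1a fl/fl libraries (SD, n = 4) and 25.8 ± 4.40% in Pot1a wt/wt libraries (SD, n = 5). Their 19 markers summed to 65274 to 145755 CPM in Pot1a fl/fl and to 34426 to 106480 CPM in Pot1a wt/wt whole marrow, with none at 0 in granulocyte-like cells. Of 18 granulocyte markers tested in whole marrow, 15 had positive values and 0 were called. The part of this share in the Ifitm6 value was not tested.

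Within granulocyte-like cells Ifitm6 was at 909.7, 1145, 1268 and 1537 CPM in Pot1a fl/fl 1 to 4, against 1272, 1026, 935, 497 and 540.2 CPM in Pot1a wt/wt 1 to 5. The groups overlapped, and the difference was 0.43 ± 0.32 (edgeR, adjusted p = 0.997). Within myelocyte-like cells Ifitm6 was at 1734, 1892, 1897 and 2776 CPM in Pot1a fl/fl 1 to 4, against 1609, 1743, 1298, 1370 and 939 CPM in Pot1a wt/wt 1 to 5. Only Pot1a fl/fl 1 lay below the highest Pot1a wt/wt value. The difference of 0.56 ± 0.27 did not pass (unadjusted p = 0.0561, adjusted p = 0.791). No member was called within granulocyte-like cells (0.0808% of all 1238 genes were), nor within myelocyte-like or monocyte/macrophage-like cells, where 0 of 426 and 0 of 280 genes were called. In B lineage-like cells 0.0661% of 1513 genes were called, and in promyelocyte-like, erythroblast-like and early erythroid progenitor-like cells none, again with no member among them. No member passed the filter on low counts in these classes, and all were kept in the tests by name.

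Ifitm1 had 18 counts in Pot1a fl/fl granulocyte-like cells, at 35.4, 33.1, 23.9 and 46.6 CPM by library, against 2 counts in Pot1a wt/wt, at 0, 14.1, 0, 13.8 and 0 CPM. The groups stood apart only through 1 cell of Pot1a fl/fl 1, which held all 7 counts of that library. Without this cell the library would stand at 0 CPM and the groups would overlap. The difference was 2.26 ± 0.74 (unadjusted p = 0.00603) and failed the adjustment (edgeR, adjusted p = 0.997). Of the 18 counts, 7 came from the single late cell named above. Ifitm2 and Ifitm3 gave 0.04 ± 0.31 and 0.10 ± 0.47 in granulocyte-like cells, and their groups overlapped.

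In whole marrow Ifitm2 averaged 231 ± 54.6 CPM in Pot1a fl/fl (SD, n = 4) and 164.0 ± 65.9 CPM in Pot1a wt/wt (SD, n = 5), with a difference of 0.56 ± 0.31 (adjusted p = 0.680). Ifitm3 averaged 186.4 ± 66.3 and 182.9 ± 110.1 CPM in the same groups (0.08 ± 0.35, adjusted p = 0.972). Ifitm1 averaged 35.3 ± 18.7 CPM in Pot1a fl/fl and 24.7 ± 20.9 CPM in Pot1a wt/wt (0.71 ± 0.57, adjusted p = 0.816). In monocyte/macrophage-like cells Ifitm3 averaged 785 ± 538 CPM in Pot1a fl/fl and 1167 ± 699 CPM in Pot1a wt/wt (SD, n = 4 each), a difference of -0.59 ± 0.47 (adjusted p = 0.719). The genotype difference of Ifitm3 was then compared between monocyte/macrophage-like and granulocyte-like cells by an interaction term, which gave -0.99 ± 0.52 (adjusted p = 0.915). In the interaction with stage, late neutrophil-like minus promyelocyte-like, Ifitm3 gave 3.42 ± 1.66 (adjusted p = 0.623) and Ifitm6 1.18 ± 1.05 (adjusted p = 0.794), with late cells from 2 Pot1a fl/fl libraries and 1 Pot1a wt/wt library.

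**Figure D4:**
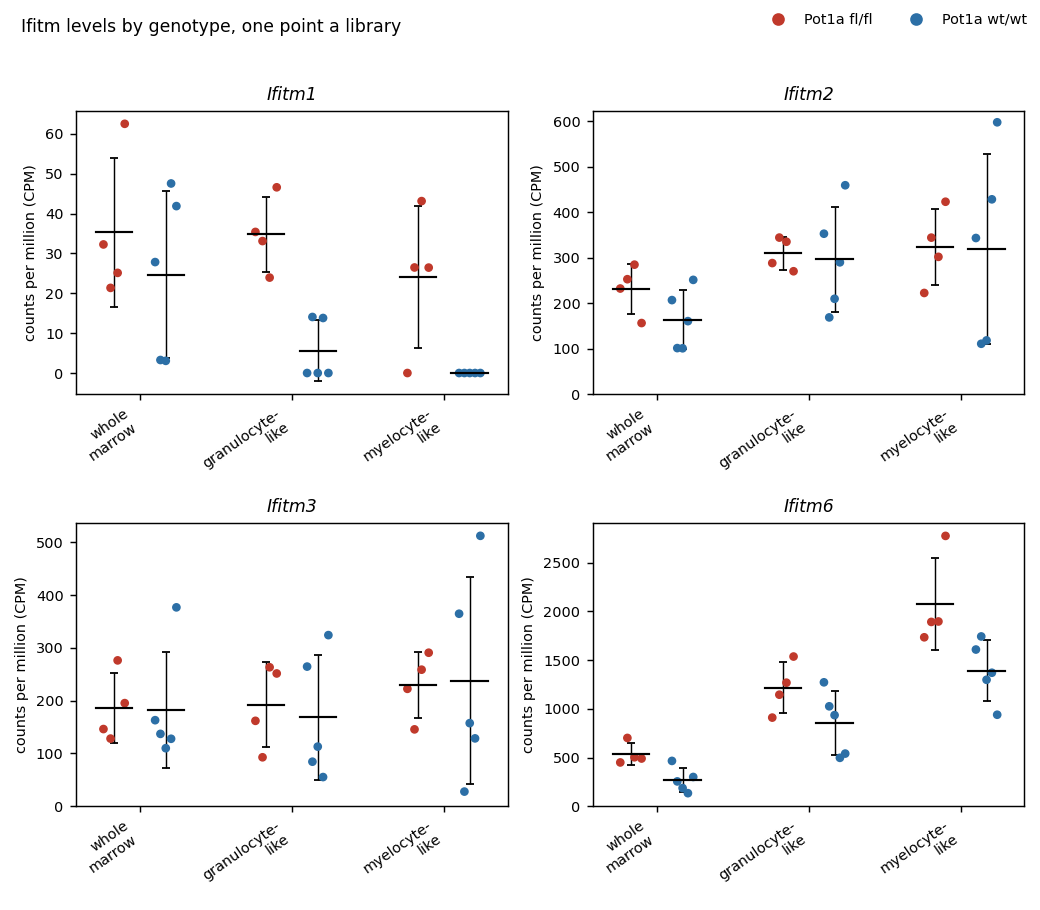
Levels of the 4 genes (CPM, linear axes) by genotype in whole marrow, granulocyte-like and myelocyte-like cells, 1 point a library, Pot1a fl/fl (n = 4) left of Pot1a wt/wt (n = 5), with mean (horizontal line) and SD (bar). In whole marrow Ifitm6 averaged 535 CPM in Pot1a fl/fl and 268 CPM in Pot1a wt/wt, and 1 Pot1a wt/wt library (465 CPM) lay within the Pot1a fl/fl range.

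Other interferon genes were followed from lists. Of 40 interferon-induced genes 14 could be tested in whole marrow. None was called, and 1 of 14 had a positive value, with a median of -0.36 against 0.00 over all genes. Isg15, a ubiquitin-like modifier, gave -1.85 ± 0.67 and Rsad2, an antiviral radical SAM enzyme, -1.61 ± 0.61 (adjusted p = 0.469 and 0.493). Both are among the leading genes of an erythroblast-like cluster. Erythroblast-like cells were 15.0 ± 4.24% of cells in Pot1a fl/fl libraries (SD, n = 4) and 21.2 ± 2.95% in Pot1a wt/wt libraries (SD, n = 5), and 0 of 20 erythroblast markers had a positive value in whole marrow (median -0.80, 0 called). Within erythroblast-like cells Isg15 gave -2.04 ± 0.73, Rsad2 -2.05 ± 0.90 and the exonuclease Isg20 -0.09 ± 0.28, and none was called (edgeR, adjusted p = 0.9996 for each). The part of the erythroblast-like share in the whole-marrow interferon values was not tested. Ifitm2, Ifitm3 and Ifitm6 had positive values in the whole-marrow contrast. That of Ifitm3 turned negative in 6 of 18 alternatives, such as -0.033 with Pot1a wt/wt 2 and 3 as 1 library, and fell to -0.16 with 1 library left out. Within erythroblast-like cells Ifitm3 gave -1.19 ± 0.61 (edgeR, adjusted p = 0.9996), negative like Isg15 and Rsad2. Ifitm2 and Ifitm6 were positive there (0.57 ± 0.60 and 0.94 ± 0.79). In early erythroid progenitor-like cells Ifitm3 gave -2.72 ± 1.51 (adjusted p = 0.758), Ifitm2 0.26 ± 0.63 and Ifitm6 2.66 ± 1.18. Under alternatives these Ifitm3 values ran from -1.82 to -0.54 and from -5.39 to 0.31. In neither class did any member pass the filter on low counts. Ifitm6 had 14 counts in Pot1a fl/fl and 12 in Pot1a wt/wt erythroblast-like cells, and 10 and 5 in early erythroid progenitor-like cells tested. These Ifitm6 counts were not read as expression above. Ifitm3 had 1 and 26 counts in early erythroid progenitor-like cells tested. Of 15 interferon receptor and signalling genes 8 were tested and 0 called, among them Ifngr1, a chain of the interferon-gamma receptor, at 0.95 ± 0.29 (adjusted p = 0.352). Of 9 other Ifitm genes and described partners 5 were tested and 0 called.

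In the class contrasts few of these genes had enough counts to be tested. Isg20, an exonuclease, had 358 counts, the most in these lists, ahead of the tetraspanin Cd81 (333), the transcription factor Irf2 (328) and the kinase Jak1 (305). Isg20 was lower in granulocyte-like than in erythroblast-like cells by a log2 difference of -4.07 ± 0.30 (adjusted p = 5.40e-19). Ifngr1 was higher in granulocyte-like than in B lineage-like cells by 3.05 ± 0.37 and than in erythroblast-like cells by 4.62 ± 0.53 (adjusted p = 1.24e-10 and 2.11e-11). Monocyte/macrophage-like cells also exceeded B lineage-like and erythroblast-like cells in Ifngr1, by 2.69 ± 0.47 and 4.26 ± 0.65 (edgeR, adjusted p = 3.72e-06 and 9.16e-08). Their difference from granulocyte-like cells in Ifngr1 was -0.36 ± 0.36 (edgeR, adjusted p = 0.605). Cd81 was lower in monocyte/macrophage-like than in granulocyte-like cells, with -3.27 ± 0.65 (adjusted p = 9.76e-05). Ifi27l2a was higher in monocyte/macrophage-like than in granulocyte-like cells by 2.30 ± 0.50 (adjusted p = 0.000341).

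Along the stages Ifngr1 fell, with -3.09 ± 0.50 in myelocyte-like minus promyelocyte-like cells (adjusted p = 4.81e-06). Zmpste24, a membrane zinc protease described to act with IFITM proteins, rose by 2.75 ± 0.42 and the tetraspanin Cd9 by 2.36 ± 0.42 in the same contrast (adjusted p = 1.58e-06 and 1.59e-05). Samhd1, a dNTP hydrolase that restricts viruses, was higher in late neutrophil-like than in myelocyte-like cells by 3.18 ± 0.71 (adjusted p = 0.00307).

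Genes whose levels over the 10 clusters were most like those of each member were looked up among 3952 genes with at least 100 counts. For Ifitm6 these were Plbd1, AA467197 and Mxd1 (Pearson r of 0.96, 0.95 and 0.94 of log2(CPM + 10) over 10 clusters). For Ifitm3 they were Tmem30a, D4Wsu53e and Chmp3 (0.90, 0.90 and 0.88) and for Ifitm2 9530068E07Rik, Cab39 and Gsr (0.94, 0.93 and 0.92). For Ifitm1 they were Ap2m1, Tmem66 and Pf4 (0.90, 0.83 and 0.81). Likeness over clusters did not mean the same cells. In the unnamed cluster Pf4 had 1 count in the 7 cells with at least 2 Ifitm1 counts, and 241 counts in the 55 cells with none. Between members r ran from 0.36 (Ifitm1 and Ifitm2) to 0.65 (Ifitm2 and Ifitm3). Clusters share libraries and differ in depth, so these values describe the clusters and carry no p.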

How the data were processed

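As the labels and the study's methods give it, the authors sequenced Drop-seq libraries of whole marrow on a NextSeq 500, aligned reads to mm10 (STAR is named in the submitters' processing notes, without version) and deposited whole-number counts per gene and barcode, called read counts in the methods. Whether reads were merged by molecular tag (UMI), and how 100 barcodes a library had been chosen, is not given in the sources used here. If they were not merged, intervals and thinned shares are tighter than molecules would give. The annotation is not stated either. No deposited column was left unused.

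Barcodes with at least 200 counts and at most 25% mitochondrial counts were kept. Seurat 5.3.0 (R 4.3.3) joined libraries by anchors, with k.weight 30 and k.filter 50, on 20 components of 2000 variable genes, and clustered them at resolution 1 without Ifitm genes. The 50 leading genes of a cluster by fold were set against each list, and the list with most hits named it (at least 3 hits, genes in at least 20% of its cells, pseudocount 0.2). Scrublet in scanpy 1.11.5 marked 19 doublets, which stayed in and were removed in an alternative. Its calls depended on the number of computing threads, which was held at 1.

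Counts were summed per library, or per library and class with at least 5 cells, and tested with edgeR 4.0.16 (TMM, filterByExpr with the 4 members always kept, quasi-likelihood, Benjamini-Hochberg over all genes). Library was a block in class and stage contrasts. Tests were first tried on simulated data. The fold changes are differences of groups as named, first minus second. Alternatives were DESeq2 1.42.0, limma 3.58.1, other normalization, filters, clusterings and left-out libraries. The text names the 4 members, listed genes that passed a test (at most 4 of largest change a contrast) or had most counts, and the 3 genes most like each member. The members and lists were chosen with earlier results of these data known. A level with no count was given the limit that 3 counts allow, and shares have 95% intervals.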

Additional observations from a re-analysis of the deposited data

Results flagged for a closer look

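In groups of 4 or 5 libraries, chance passes Dixon's 95% limit in about 1 of 20 independent groups. In 7 of 46 sets of levels 1 library stood further from the rest of its group than this limit. Ifitm3 did so in whole marrow of Pot1a wt/wt 5, at 376.7 CPM against 109.9 to 163 CPM in the other Pot1a wt/wt libraries, and in erythroblast-like cells of the same library, at 656 CPM against 102.2 to 174 CPM. Ifitm6 in erythroblast-like cells of Pot1a wt/wt 5 stood at 187.5 CPM (6 counts) against 0 to 51.1 CPM. In monocyte/macrophage-like cells Ifitm3 stood at 1587 CPM in Pot1a fl/fl 3, against 472 to 597 CPM in the other Pot1a fl/fl libraries. Pot1a fl/fl 3 and Pot1a wt/wt 5 were the 2 libraries with the lowest totals (119459 and 143345 counts). Pot1a wt/wt 1 was high for Ifitm3 in early erythroid progenitor-like cells, at 363.6 CPM (6 counts) against 39.3 to 110.1 CPM. The same library was high for Ifitm6 in promyelocyte-like cells, at 253.9 CPM against 0 to 34.1 CPM. In myelocyte-like cells Ifitm6 stood at 2776 CPM in Pot1a fl/fl 4, against 1734 to 1897 CPM in the other Pot1a fl/fl libraries. Sets of whole marrow, class and stage share cells and are not independent, so 7 of 46 cannot be set against the chance rate.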

How the results depend on the processing

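Values are log2 differences. In every alternative run, Ifitm2, Ifitm3 and Ifitm6 were called higher in granulocyte-like and in monocyte/macrophage-like than in B lineage-like cells, as were Ifitm2 and Ifitm6 in granulocyte-like and Ifitm2 and Ifitm3 in monocyte/macrophage-like over erythroblast-like cells. The same held for Ifitm3 (0.84 to 2.14) and Ifitm6 (-3.58 to -2.16) in monocyte/macrophage-like minus granulocyte-like cells, for Ifitm3 and Ifitm6 in myelocyte-like minus promyelocyte-like cells (1.31 to 2.33 and 4.55 to 5.65), and for Ifitm6 in late minus promyelocyte-like cells (4.67 to 6.58). The list of results followed one by one was shortened after their changes had been seen: 17 other values, all genotype differences, gave 406 values under alternatives, of which 0 were called and 42 had the opposite sign. Some values not called as reported were called in alternatives: Ifitm6 in late minus myelocyte in 5 of 21, and Ifitm1 in granulocyte minus erythroblast in 5 of 23, in late minus myelocyte in 6 of 21 and in myelocyte minus promyelocyte in 2 of 24. Unless stated, the cause of a change was not tested.

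With no filter on low counts Ifitm6 in whole marrow was called between genotypes (1.03). The same setting gave Ifitm3 0.25 between genotypes in myelocyte-like cells, Ifitm1 2.02 in granulocyte-like minus B lineage-like cells, and Ifitm1 -3.90 and Ifitm2 -0.38 in monocyte/macrophage-like minus granulocyte-like cells. It gave Ifitm2 0.46 in myelocyte-like minus promyelocyte-like cells, Ifitm3 -0.056 and Ifitm6 -0.20 in late minus myelocyte-like cells, and Ifitm1 2.97, Ifitm2 -0.65 and Ifitm3 1.63 in late minus promyelocyte-like cells.

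DESeq2 gave Ifitm1 2.10 (granulocyte minus B lineage), 1.43 (monocyte minus B lineage), 0.45 (monocyte minus erythroblast) and -0.67 (monocyte minus granulocyte), and Ifitm2 0.39 in myelocyte minus promyelocyte, as did its size factors in edgeR (0.39). Means of scaled cells with limma gave Ifitm1 0.84 (granulocyte minus erythroblast) and 1.21 (late minus promyelocyte), Ifitm2 0.13 (myelocyte minus promyelocyte) and -0.22 (late minus promyelocyte), Ifitm6 -0.10 (late minus myelocyte) and Ifitm3 0.20 between genotypes in myelocyte-like cells.

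Without doublets Ifitm1 gave 2.30 (granulocyte minus erythroblast), -2.27 (myelocyte minus promyelocyte), 4.04 (late minus myelocyte) and 1.77 (late minus promyelocyte), Ifitm2 0.36 (myelocyte minus promyelocyte) and 0.27 (late minus myelocyte), and Ifitm6 1.02 (late minus myelocyte). With every barcode kept, and with Ifitm genes in the clustering, neither of which gave a late cluster, Ifitm1 gave 2.95 and 2.71 (granulocyte minus erythroblast) and -0.33 and -0.28 between genotypes in granulocyte-like cells. Ifitm3 gave 0.24 and 0.15 between genotypes in myelocyte-like cells, and with every barcode Ifitm6 gave 0.084 in the genotype by class interaction.

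At resolution 0.6 Ifitm1 gave 2.70 (granulocyte minus erythroblast), -2.23, 4.47 and 2.24 (myelocyte minus promyelocyte, late minus myelocyte, late minus promyelocyte) and Ifitm6 0.98 (late minus myelocyte). At resolution 1.5 a cluster led by Mcpt8 and Angpt1 also took the monocyte/macrophage name, and Ifitm1 gave 4.22, 3.25 and 1.80 there (minus B lineage, erythroblast and granulocyte) and 4.03 (late minus myelocyte), Ifitm2 -0.32 (monocyte minus granulocyte) and Ifitm6 1.05 (late minus myelocyte). Without integration Ifitm1 gave 2.37 and -1.52 (monocyte minus B lineage and minus granulocyte) and 4.47 (late minus myelocyte). Ifitm2 gave -0.0073 (monocyte minus granulocyte), 0.61 (myelocyte minus promyelocyte) and 0.52 (late minus myelocyte), and Ifitm6 1.12 (late minus myelocyte). In the interactions Ifitm6 gave 0.050 (class) and -2.38 (stage).

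With each cell classed by its own markers Ifitm1 gave -0.29 (granulocyte minus erythroblast), 2.99, 0.064 and 0.35 (monocyte minus B lineage, erythroblast and granulocyte) and 0.062 (myelocyte minus promyelocyte). Ifitm6 lost its call in monocyte minus erythroblast (0.69), Ifitm2 gave -0.17 (monocyte minus granulocyte) and 0.60 (myelocyte minus promyelocyte), and Ifitm3 -0.94 and 1.15 (late minus myelocyte and minus promyelocyte). Between genotypes this gave -0.15 and -0.12 for Ifitm2 and Ifitm3 in granulocyte-like cells, 0.23 and 0.052 for Ifitm3 in monocyte/macrophage-like and myelocyte-like cells, and 1.56 for Ifitm6 in the class interaction. With at least 2 cells a stage Ifitm2 gave 0.29 (myelocyte minus promyelocyte), 0.28 (late minus myelocyte) and 0.23 (stage interaction), and Ifitm6 0.82 (late minus myelocyte). Without the library block Ifitm1 gave -3.81 (monocyte minus granulocyte) and 3.77 (late minus myelocyte), and Ifitm2 -0.078 (monocyte minus granulocyte).

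Between genotypes, Pot1a wt/wt 2 and 3 as 1 library gave -0.10 for Ifitm2 and -0.056 for Ifitm3 in granulocyte-like cells, -0.029 for Ifitm2 in myelocyte-like cells and -0.033 for Ifitm3 in whole marrow. A sex term gave Ifitm3 -0.042 in granulocyte-like cells and -0.015 in whole marrow. Equal replicate numbers did not pair the libraries (r of -0.16 to 0.01 between same-numbered libraries). With the number as a replicate block Ifitm6 in whole marrow gave 1.25 (adjusted p = 0.303), Ifitm3 in myelocyte-like cells 0.44, and no member was called.

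Leaving out 1 library at a time gave these ranges. Between genotypes Ifitm3 ran from -0.16 to 0.49 in whole marrow, from -0.18 to 0.53 in granulocyte-like and from -0.38 to 0.54 in myelocyte-like cells, and Ifitm2 from -0.15 to 0.24 and from -0.14 to 0.35 in the same 2 classes. Ifitm1 ran from 1.53 to 2.70 in granulocyte minus B lineage and from -4.09 to -3.51 in monocyte minus granulocyte, where leaving out any Pot1a fl/fl library, Pot1a wt/wt 2 or Pot1a wt/wt 4 ended the call. Ifitm2 ran from -0.12 to 0.12 in monocyte minus granulocyte and from 0.54 to 0.81 in myelocyte minus promyelocyte, its call ending when Pot1a fl/fl 2, Pot1a fl/fl 4, Pot1a wt/wt 4 or Pot1a wt/wt 5 was left out. Ifitm1 ran from -0.49 to 0.10 in myelocyte minus promyelocyte, from -2.90 (without Pot1a fl/fl 1) to 7.09 (without Pot1a fl/fl 4) in late minus myelocyte, and from -3.05 to 7.19 in late minus promyelocyte without the same libraries. Ifitm2 ran from -0.71 to 0.062 and Ifitm3 from -0.023 to 1.22 in late minus myelocyte, and Ifitm3 from 1.78 to 3.11 in late minus promyelocyte. In the interactions Ifitm6 ran from -0.64 to 0.30 (class, the highest without Pot1a wt/wt 5) and Ifitm2 from -1.64 to 0.034 (stage, the highest without Pot1a fl/fl 4).

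Counts of genes called between genotypes ran from 1 to 69 in whole marrow (3 as reported), 0 to 8 in granulocyte-like (1), 0 to 3 in monocyte/macrophage-like (0), 0 to 5 in myelocyte-like (0) and 0 to 12 in B lineage-like cells (1, and 6 with the replicate block). With no filter the 5 class contrasts called 1778, 2575, 1545, 1961 and 782 genes, against 682, 852, 588, 705 and 231. Myelocyte minus promyelocyte called 472 (248 to 862), late minus myelocyte 116 (18 without Pot1a fl/fl 1 to 227 with limma), and late minus promyelocyte 395 (123 to 570).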

Other observations

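Ifitm2 differed between the 2 B lineage-like clusters, which were compared after their values had been seen and without a test. It averaged 101.8 ± 58.0 CPM in the cluster led by Vpreb1, Igll1 and Dntt, genes of pro-B and pre-B cells, and 15.1 ± 20.8 CPM in the cluster led by Fcrla, Cd72 and Igkc (SD over libraries). Within granulocyte-like cells 39.1% of the 179 cells with an Ifitm6 count also held Ifitm3, and 15.2% of the 105 cells without one did, at median depths of 2166 and 2410 counts. For Ifitm2 the shares were 46.9% and 55.2% of the same cells. The split by Ifitm6 is also a split by stage. Ifitm6 was found in 19.6%, 84.6% and 89.5% of promyelocyte-like, myelocyte-like and late neutrophil-like cells, and Ifitm3 in 20.6%, 33.6% and 42.1%. The part of stage in these shares was not tested. All 4 members were found together in 4 cells of 899, and 359 cells held none of them.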
